A study of Mus musculus with 32 samples.

Results

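The phase II conjugation enzymes are the glutathione transferases, the UDP-glucuronosyltransferases and the cytosolic sulfotransferases, 3 enzyme families that attach a water-soluble group to drugs, toxins, steroids and bile acids. Their genes were taken by symbol from the array's annotation: every probe other than a control whose gene name began with Gsta, Gstk, Gstm, Gsto, Gstp, Gstt or Gstz, with Ugt1a, Ugt2a, Ugt2b, Ugt3a or another name of that form, or with Sult, each followed by a number. This gave 76 probes for 53 of the 37520 genes on the array, namely 20 glutathione transferases, 14 glucuronosyltransferases and 19 sulfotransferases. Of these 53 genes, 44 were tested (19 glutathione transferases, 14 glucuronosyltransferases and 11 sulfotransferases). The other 9, Gstt4, Sult2a1 to Sult2a6, Sult3a1 and Sult6b1, were not well above background on enough arrays: only the Sult2a2 probe reached it at all, on 1 array.

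The study asked whether E171, the food-grade titanium dioxide used as a white colourant, changes liver gene expression, and whether diet alters that effect. The animals were 32 male C57BL/6J mice of the F1 generation, killed at 21 weeks, and the liver RNA of each was hybridised to its own one-colour Agilent array, with 8 mice in each of 4 groups. The normal diet control group (ND_CONT) and the Western diet control group (WD_CONT) ate pellets without the additive. The normal diet E171 group (ND_E171) and the Western diet E171 group (WD_E171) ate pellets set to reach 10 mg of E171 per kg of body weight per day. All animals shared one strain, sex and tissue, and carried no genetic change named in the labels. Exposure began in the F0 dams 40 days before mating, and each F1 mouse stayed in the condition of its dam. The Western diet, which the treatment text calls high fat, started at 5 weeks of age and lasted 16 weeks. Litter is not given, so the 8 mice of a group were treated as independent, which littermates need not be.

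Glutathione transferases join glutathione to electrophiles, and the alpha, mu and pi classes are abundant cytosolic proteins of the hepatocyte. Glucuronosyltransferases sit in the endoplasmic reticulum and transfer glucuronic acid from UDP-glucuronate, for instance to bilirubin, steroids and phenols. Sulfotransferases use PAPS as the sulfate donor, and in the mouse liver several of them, like some glutathione transferases, are known to differ between males and females. The electrophile sensor Nrf2, the aryl hydrocarbon receptor, the nuclear receptors CAR and PXR, and growth hormone acting through STAT5b are known regulators of these families.

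The sequences upstream of 4 genes are shown because these genes gave the largest rises (Sult1e1, Gsta2) or because they are a pair of neighbouring, near-identical genes that fell together (Gstp1, Gstp2). Each line holds the 250 bases before the transcription start, 5′ to 3′ on the gene's own strand, from RefSeq on GRCm38.p6. Capitals mark matches, on either strand, to TGAGNNNGC or TGACNNNGC (forms of the antioxidant response element core bound by Nrf2), GCGTG (the core bound by the aryl hydrocarbon receptor) or TTCNNNGAA (the STAT5 core).
Sult1e1 promoter, chr5:87591612-87591861, minus strand: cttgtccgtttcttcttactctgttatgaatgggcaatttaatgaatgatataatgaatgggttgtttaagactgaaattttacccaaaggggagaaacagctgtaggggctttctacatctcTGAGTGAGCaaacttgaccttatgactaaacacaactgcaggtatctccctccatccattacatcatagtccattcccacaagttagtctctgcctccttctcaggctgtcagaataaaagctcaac
Gsta2 promoter, chr9:78347146-78347395, minus strand: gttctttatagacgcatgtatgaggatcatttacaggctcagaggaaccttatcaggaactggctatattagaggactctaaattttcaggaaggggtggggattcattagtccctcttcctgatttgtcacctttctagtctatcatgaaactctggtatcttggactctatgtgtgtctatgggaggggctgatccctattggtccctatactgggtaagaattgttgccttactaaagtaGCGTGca
Gstp1 promoter, chr19:4037913-4038162, minus strand: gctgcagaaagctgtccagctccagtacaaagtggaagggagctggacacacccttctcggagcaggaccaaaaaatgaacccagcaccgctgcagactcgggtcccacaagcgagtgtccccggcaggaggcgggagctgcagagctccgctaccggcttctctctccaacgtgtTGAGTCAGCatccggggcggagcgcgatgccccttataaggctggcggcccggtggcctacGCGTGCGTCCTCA
Gstp2 promoter, chr19:4042222-4042471, minus strand: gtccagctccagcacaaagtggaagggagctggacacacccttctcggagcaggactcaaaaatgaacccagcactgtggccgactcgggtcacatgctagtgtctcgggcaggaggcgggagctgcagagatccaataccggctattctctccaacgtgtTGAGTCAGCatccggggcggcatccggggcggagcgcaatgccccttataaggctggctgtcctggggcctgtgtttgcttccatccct

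The Gstp1 and Gstp2 stretches were 78.1% identical in a global alignment, and both held the same TGAGTCAGC, 74 bases before the start in Gstp1 and 89 before it in Gstp2. In Gstp1 a match to GCGTG overlapped a second TGAGNNNGC match on the opposite strand. Sult1e1 held 1 TGAGNNNGC match and Gsta2 held 1 GCGTG match, which began 7 bases before the start. Upstream windows were found for 45 of the 53 members, some with several starts, 56 windows in all. TGACNNNGC was present in 3 of these 56 windows and in 10.2% of all 32851 mouse windows. TGAGNNNGC was present in 10 of them and in 14.4% of all, GCGTG in 8 and in 28.2%, and TTCNNNGAA in 3 and in 7.02%. These matches describe letters only, and no binding was measured.

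The arrays carried 32163 to 37261 probes well above background each, and arrays of one group correlated at 0.9813 to 0.9957 over the 23656 genes tested. Each of 4 slides held 2 mice of every group. The 2 Western diet control arrays numbered 5 and 6 correlated least with their group (median 0.9853 and 0.9865), so the counts below are also given without them. All 10 hepatocyte markers on a marker list, among them Alb, Ttr and Hnf4a, passed the filter on dim probes, while 2 of 5 exocrine pancreas and 2 of 4 small intestine markers did. Levels are given as log2 intensity relative to the 75th percentile of the same array, and differences as log2 of the ratio, from limma with Benjamini-Hochberg adjustment over 23656 genes and a threshold of 0.05. In whole liver RNA, fewer cells of a type and less RNA per cell cannot be told apart.

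Between the diets, conjugation enzymes changed in both directions. In control mice the share that passed in either direction was close to that of all genes. In E171 mice a smaller share of the members than of all genes fell. No test over the members was run. In control mice 10 of 44 tested members rose (22.7%, against 18.7% of all genes tested) and 10 fell (22.7%, against 28.5%). The rises were led by the estrogen sulfotransferase Sult1e1, the alpha-class transferase Gsta2 and the mu-class transferase Gstm2, and the falls by the sulfotransferases Sult2a8, Sult5a1 and Sult2a7 and by the pi-class pair Gstp1 and Gstp2. In E171 mice 12 rose (27.3%, against 21.9%) and 7 fell (15.9%, against 32%). Of the 44, 9 rose in both comparisons and 6 fell in both, 5 passed in control mice alone, 4 in E171 mice alone, and 20 in neither, while 0 changed in opposite directions.

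In control mice 45.5% of the 44 passed in either direction, against 47.2% of all genes tested, and in E171 mice 43.2% passed, against 53.9%. The median difference over the members was -0.09 in control mice and -0.01 in E171 mice, and over all genes it was -0.10 and -0.11. Changes of at least 2-fold were called in 6 of the 44 members upward and 4 of the 44 downward in control mice. Of all genes, 5.47% and 1.75% were so called there. In E171 mice 4 of the 44 were so called upward and 2 downward, against 6.55% and 2.03% of all genes. Groups did not overlap for 2 members upward and 0 downward in control mice, against 4.62% and 5.48% of all genes, and for 7 upward and 4 downward in E171 mice, against 8.92% and 9.39%. Scaling each array to its median turned the split in E171 mice from 12 higher and 7 lower to 9 higher and 9 lower. Without the 2 Western diet control arrays that stood apart, 24 members passed in control mice, 11 higher and 13 lower. Those 2 mice had the highest Sult2a8 levels of WD_CONT (5.59 and 6.17), nearest to normal diet. Without them the Sult2a8 difference was -2.06 instead of -1.65, while that of Sult1e1 was 3.48 instead of 3.95. Leaving them out is therefore not a neutral check.

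**Figure D1:**
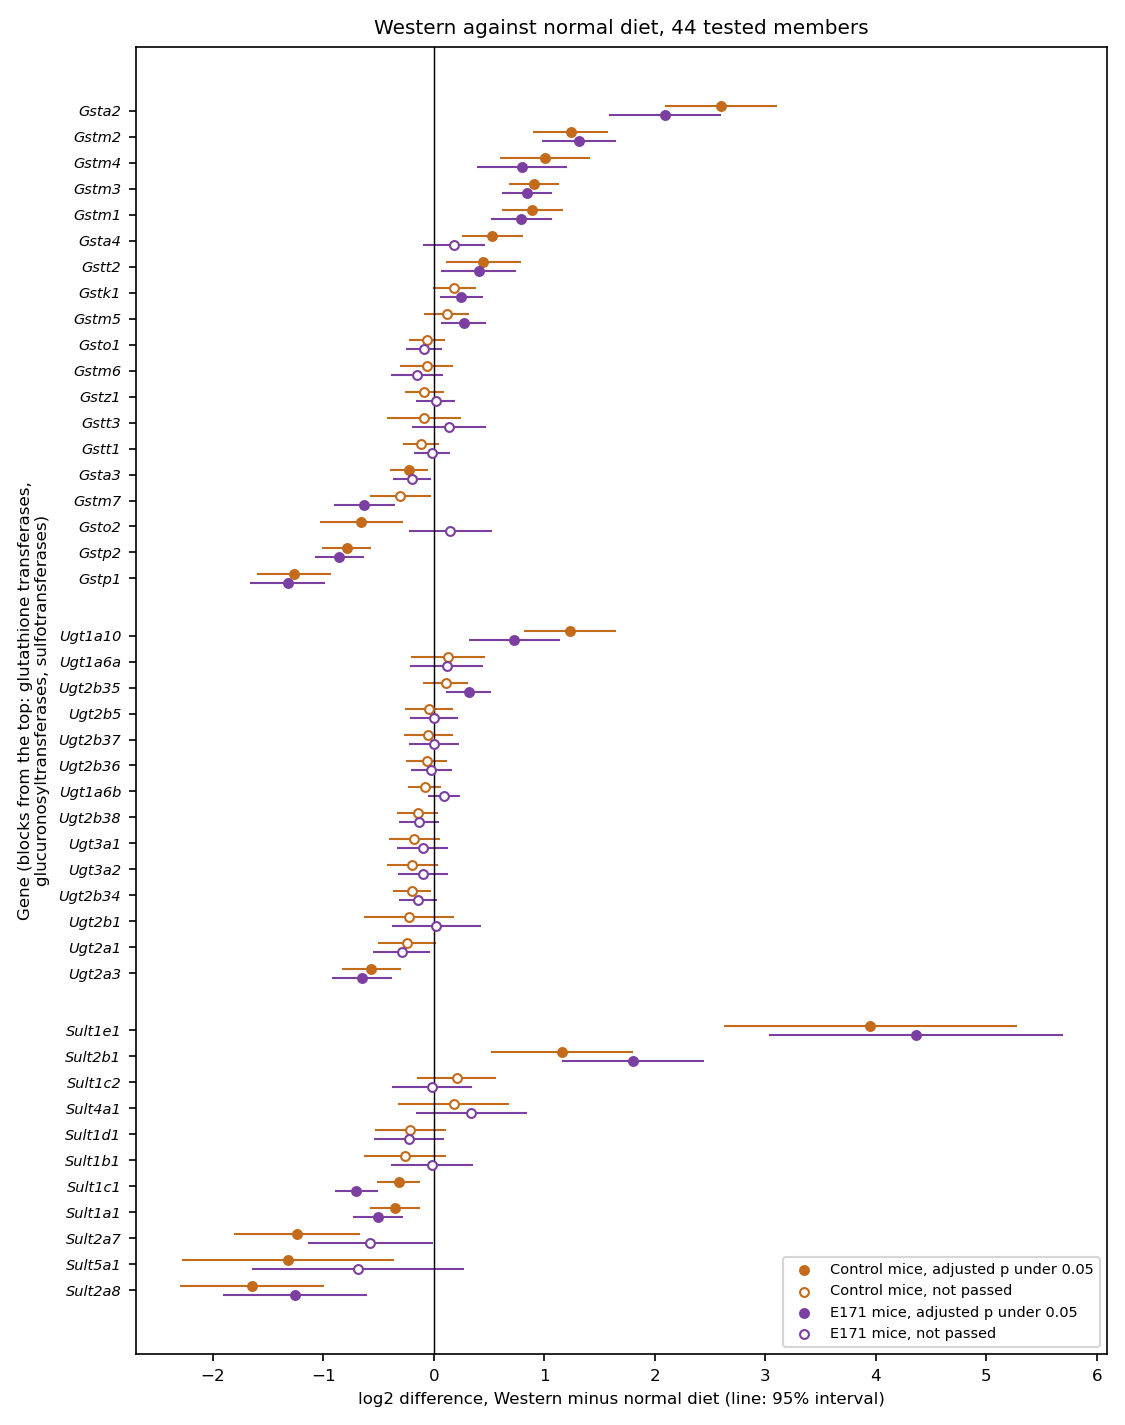
Log2 difference between Western and normal diet for the 44 tested members, with the 95% interval as a line, in control mice (orange) and E171 mice (purple); filled dots passed the adjusted threshold of 0.05. Sult1e1 (3.95 and 4.36) and Gsta2 (2.60 and 2.09) lie far to the right, Sult2a8 (-1.65 and -1.26) and Gstp1 (-1.27 and -1.33) to the left, and most glucuronosyltransferases lie close to 0.

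Among the alpha-class transferases, Gsta2 gave the largest rise of any glutathione transferase. Its level ran from 0.95 through a median of 1.92 to 3.03 in normal diet controls and from 3.48 through 4.66 to 5.08 in Western diet controls. In E171 mice it ran from 1.30 through 1.79 to 2.51 on normal diet and from 3.53 through 3.91 to 4.16 on Western diet. Every mouse on Western diet lay above every mouse on normal diet in both comparisons. The difference was 2.60 ± 0.25 (SE, 8 mice a group; limma adjusted p = 1.335e-09), a 6.06-fold rise, in control mice and 2.09 ± 0.25 (adjusted p = 4.889e-08), 4.26-fold, in E171 mice. Within the 4 slides the difference in control mice ranged from 1.87 to 3.67. Gsta4, which conjugates the lipid peroxidation product 4-hydroxynonenal, rose by 0.53 in control mice (adjusted p = 0.00212), and its difference in E171 mice was 0.18 (adjusted p = 0.2609). Gsta3 fell by 0.22 in control mice (adjusted p = 0.03078) and differed by -0.20 in E171 mice (adjusted p = 0.05091). Another of its probes, which no listed accession ties to the gene, differed the other way, by 0.44 and 0.32 (adjusted p = 0.08912 and 0.1943 over the probes kept).

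The mu-class genes lie in one cluster on mouse chromosome 3, in the order Gstm5, Gstm7, Gstm6, Gstm3, Gstm2, Gstm1 and Gstm4 by their probe positions on build mm9, and the last 4 of that order all rose in both comparisons. The Gstm3 probe lies at chr3:107766730-107766789, the Gstm2 probe at chr3:107784622-107784681, a Gstm1 probe at chr3:107815595-107815654 and the Gstm4 probe within chr3:107846495-107846847. Gstm2 ran from 4.17 through 4.29 to 5.23 in normal diet controls and from 4.98 through 5.75 to 6.17 in Western diet controls. In E171 mice the ranges were 4.05 to 4.47 (median 4.30) on normal diet and 5.14 to 5.87 (median 5.68) on Western diet. The control groups overlapped through 1 normal diet mouse at 5.23, and the E171 groups did not overlap. Gstm2 rose by 1.24 ± 0.17 in control mice (limma adjusted p = 4.518e-07) and by 1.31 ± 0.17 in E171 mice (adjusted p = 1.224e-07).

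Gstm4 ran from 2.23 through 2.78 to 3.16 in normal diet controls and from 2.47 through 3.85 to 4.53 in Western diet controls. It rose by 1.01 ± 0.20 (limma adjusted p = 0.0001365), and in E171 mice, at 2.47 to 3.38 on normal diet and 3.22 to 4.03 on Western diet, by 0.79 ± 0.20 (adjusted p = 0.00139). The groups overlapped in both comparisons. Gstm3 rose by 0.90 and 0.84, and Gstm1 by 0.89 and 0.79, in control and E171 mice. Both genes had groups that did not overlap in E171 mice and did overlap in control mice.

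The other mu-class genes moved little or the other way. Gstm5 differed by 0.11 in control mice (limma adjusted p = 0.3514) and rose by 0.27 in E171 mice (adjusted p = 0.02383). Gstm7 differed by -0.30 in control mice (adjusted p = 0.06503) and fell by 0.63 in E171 mice (adjusted p = 0.0002809). The probe that stands for Gstm6 differed by -0.07 and -0.15, neither of which passed, while its other probe differed by 0.82 and 0.67 (adjusted p = 0.001052 and 0.005173 over the probes kept), so the call for Gstm6 depends on the probe. The mu-class genes are close paralogs: the probe that stands for Gstm1 is placed on chromosome 5 in the file, at chr5:117082490-117082549, while its second probe, on chromosome 3, differed by 0.87 in control mice and 0.83 in E171 mice. The upstream windows of Gstm1 to Gstm4 were 43.8% to 56.4% identical to each other (median 46% over 13 pairs of starts), against 39% to 52% (median 45.9% over 36 pairs) between these 4 and the windows of Gstm5 to Gstm7.

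**Figure D2:**
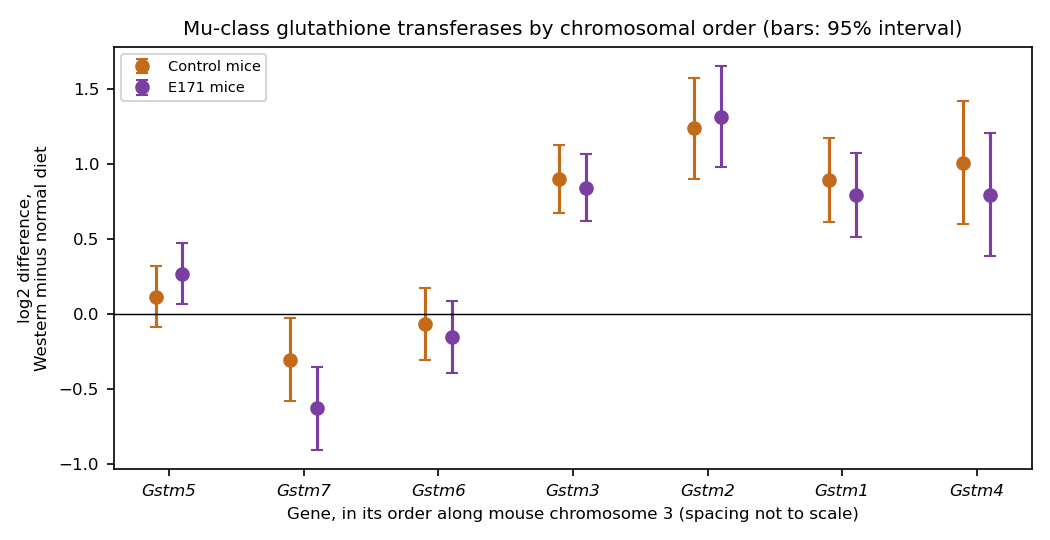
Log2 difference between Western and normal diet for the 7 mu-class genes in their order along chromosome 3, with 95% intervals, in control mice (orange) and E171 mice (purple). Gstm3, Gstm2, Gstm1 and Gstm4 lie between 0.79 and 1.31, and Gstm7 and Gstm6 lie below 0.

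The pi-class pair fell together. Gstp1, long used as a marker of altered hepatocytes in the rat and known to be higher in male than in female mouse liver, ran from 5.33 through 6.25 to 6.65 in normal diet controls and from 4.36 through 4.75 to 5.46 in Western diet controls. In E171 mice it ran from 5.70 through 5.92 to 6.39 on normal diet and from 4.31 through 4.64 to 5.20 on Western diet. The control groups overlapped and the E171 groups did not. Gstp1 fell by 1.27 ± 0.17 (limma adjusted p = 3.027e-07) in control mice, from -1.53 to -0.81 within slides, and by 1.33 ± 0.17 (adjusted p = 1.082e-07) in E171 mice. Gstp2 fell by 0.79 (adjusted p = 7.389e-07) in control mice and fell by 0.86 in E171 mice (adjusted p = 1.357e-07). The accessions listed for the Gstp1 probe include a Gstp2 transcript, so the share of each gene in that signal is uncertain.

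The remaining glutathione transferase classes changed less. Theta-class Gstt2 rose by 0.45 in control mice (limma adjusted p = 0.02706) and by 0.40 in E171 mice (adjusted p = 0.03942), while Gstt1 and Gstt3 did not pass in either comparison. Kappa-class Gstk1 differed by 0.19 in control mice (adjusted p = 0.1118) and rose by 0.25 in E171 mice (adjusted p = 0.0305). Gsto2, an omega-class enzyme that reduces dehydroascorbate, fell by 0.66 in control mice (adjusted p = 0.004214) and differed by 0.15 in E171 mice (adjusted p = 0.5147). Its probe exceeded background clearly on 8, 7, 5 and 6 of 8 arrays in ND_CONT, ND_E171, WD_CONT and WD_E171, so these values lie near the detection limit. Gsto1 and the tyrosine catabolic enzyme Gstz1 did not pass in either comparison.

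The sulfotransferases held both the largest rise and the largest fall of all members in control mice, and the largest rise in E171 mice. Sult1e1, which inactivates estrogens by sulfation, ran from -5.82 through -4.05 to -2.32 in normal diet controls and from -2.02 through -0.71 to 3.78 in Western diet controls. In E171 mice it ran from -5.89 through -4.89 to -2.84 on normal diet and from -2.39 through -0.22 to 0.91 on Western diet. On Western diet every mouse lay above every normal diet mouse of its treatment. Sult1e1 rose by 3.95 ± 0.65 in control mice (limma adjusted p = 1.171e-05), a 15.4-fold rise with a 95% interval of 2.62 to 5.28 on the log2 scale, and by 4.36 ± 0.65 in E171 mice (adjusted p = 2.058e-06), 20.6-fold. Detection above background was reached on 7 of 8 arrays in each normal diet group and on all 8 in each Western diet group, and the size depended on how background was removed: with normexp correction the rises were 2.39 and 2.32 (adjusted p = 0.0001275 and 0.00015). Within slides the difference in control mice ranged from 1.68 to 7.64. Without the 2 Western diet control arrays that stood apart it was 3.48 (adjusted p = 1.551e-05).

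Sult2b1, which sulfates cholesterol and other hydroxysteroids, also rose. It ran from -5.82 to -4.80 (median -5.13) in normal diet controls and from -5.36 to -2.53 (median -4.01) in Western diet controls. In E171 mice it ran from -5.55 to -4.65 (median -5.23) on normal diet and from -4.45 to -2.56 (median -3.22) on Western diet. The control groups overlapped and the E171 groups did not. The rise was 1.16 ± 0.31 (limma adjusted p = 0.003202) in control mice and 1.80 ± 0.31 (adjusted p = 2.039e-05) in E171 mice. These levels are near the detection limit, since 6 of 8 normal diet control arrays detected the probe above background. With normexp correction the difference in control mice was 0.18 (adjusted p = 0.1547) and no longer passed, while that in E171 mice was 0.42 (adjusted p = 0.001682). In the authors' deposited log2 values the differences were 0.63 (adjusted p = 0.005252) and 1.02 (adjusted p = 1.936e-05).

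Sult2a8, a bile acid sulfotransferase of mouse liver, fell most in control mice. It ran from 5.98 through 6.24 to 6.66 in normal diet controls and from 2.99 through 4.81 to 6.17 in Western diet controls. In E171 mice it ran from 6.16 through 6.39 to 6.56 on normal diet and from 3.82 through 5.14 to 5.91 on Western diet. The Western diet groups spread widely below the narrow normal diet groups, with an overlap in control mice and none in E171 mice. The fall was 1.65 ± 0.32 (limma adjusted p = 9.866e-05), 3.14-fold, in control mice and 1.26 ± 0.32 (adjusted p = 0.001461), 2.39-fold, in E171 mice.

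Sult2a7, a hydroxysteroid sulfotransferase gene of the same cluster on chromosome 7, ran from -1.72 through -0.65 to 0.05 in normal diet controls and from -3.52 through -1.95 to -1.12 in Western diet controls. It fell by 1.24 ± 0.28 in control mice (limma adjusted p = 0.0005789), and its difference in E171 mice was -0.57 ± 0.28 (adjusted p = 0.08158). That of E171 mice passed with the replicate number as a block (adjusted p = 0.0475) and in a fit of only those 2 groups (adjusted p = 0.0186). Sult5a1 ran from -0.95 through 0.53 to 1.11 in normal diet controls and from -2.56 through -1.01 to 1.20 in Western diet controls. It fell by 1.32 ± 0.47 in control mice (adjusted p = 0.02113), and its difference in E171 mice was -0.69 ± 0.47 (adjusted p = 0.2145). Another kept probe of Sult5a1 differed by less, -0.76 and -0.60 (limma adjusted p = 0.04831 and 0.1041 over the probes kept). The groups overlapped for both genes.

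The phenol sulfotransferase Sult1a1 fell by 0.35 in control mice (limma adjusted p = 0.01016) and by 0.51 in E171 mice (adjusted p = 0.0003501). Sult1c1 fell by 0.32 (adjusted p = 0.007225) and by 0.70 (adjusted p = 4.541e-07). Sult1b1, Sult1c2, Sult1d1 and Sult4a1 did not pass in either comparison. The 9 genes that were not tested include Sult2a1 to Sult2a6, hydroxysteroid sulfotransferases known to be low in adult male mouse liver.

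Of 14 glucuronosyltransferases, 1 was higher and 1 lower in control mice, where 47.2% of all genes passed, and 2 were higher and 1 lower in E171 mice, where 53.9% did. The families were not tested against each other. Ugt1a10 ran from -3.12 through -2.43 to -2.03 in normal diet controls and from -2.28 through -1.18 to -0.59 in Western diet controls. In E171 mice it ran from -2.77 to -1.50 (median -2.27) on normal diet and from -1.97 to -0.84 (median -1.61) on Western diet. The groups overlapped in both comparisons. It rose by 1.23 ± 0.20 (limma adjusted p = 1.155e-05) in control mice and by 0.73 ± 0.20 (adjusted p = 0.003382) in E171 mice, or by 0.72 and 0.40 with normexp correction. The accessions listed for this probe belong to Ugt1a10 and Ugt1a9, so the transcript cannot be named with certainty. Genes of the Ugt1a locus share their last exons. The probes that stand for Ugt1a6a and Ugt1a6b, whose listed accessions cover 4 genes of that locus each, did not pass. Other Ugt1a6b probes, listed for that gene alone, differed by -0.02 and -0.12 in control mice and by -0.06 and 0.045 in E171 mice.

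Ugt2a3 ran from 4.21 through 4.68 to 4.99 in normal diet controls and from 3.67 through 4.03 to 4.60 in Western diet controls. It fell by 0.57 ± 0.13 in control mice (limma adjusted p = 0.0007873) and by 0.65 ± 0.13 in E171 mice (adjusted p = 0.0001339), and the groups overlapped in control mice only. None of the 7 Ugt2b genes, which handle steroids and bile acids, passed in control mice (0 of 7; 1 at an unadjusted p under 0.05 in limma), with differences from -0.23 to 0.11. In E171 mice Ugt2b35 rose by 0.31 (adjusted p = 0.009312). Ugt2b5 and Ugt2b37, whose probes share 46 of 60 bases, both lay within 0.05 of no difference. Ugt3a1 and Ugt3a2, which use other sugar donors, differed by -0.18 and -0.19 in control mice and did not pass.

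**Figure D3:**
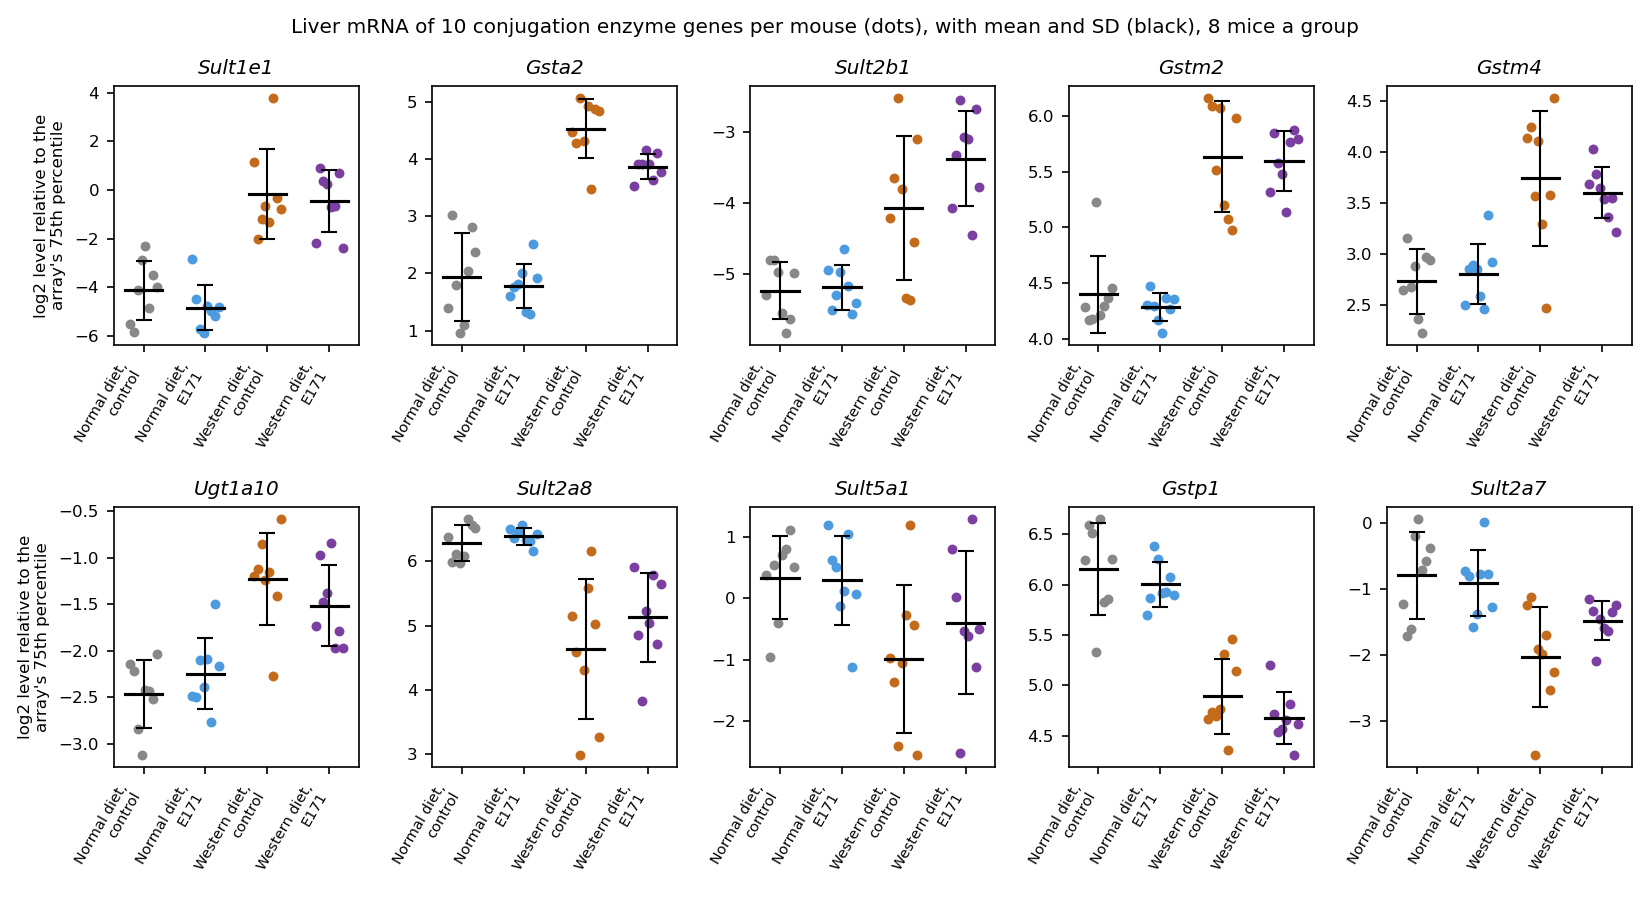
Log2 level of 10 members in each of the 32 mice (dots), with the group mean and SD in black, on an axis of log2 intensity relative to the array's 75th percentile. Sult1e1 and Gsta2 show no overlap between diets within a treatment, while Sult2a8, Sult2b1 and Sult5a1 spread more widely among Western diet mice than among normal diet mice.

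Genes that supply or remove the conjugates moved in both directions. The counts for these and the following lists stand beside 18.7% of all genes higher and 28.5% lower in control mice, and 21.9% and 32% in E171 mice. Of 11 tested genes of glutathione supply, 3 rose and 4 fell in control mice and 2 rose and 4 fell in E171 mice, with a median difference of -0.08 in each. Glutathione synthetase Gss rose by 0.79 and 0.54 and the catalytic subunit of glutamate-cysteine ligase, Gclc, by 0.46 and 0.30, whereas the transsulfuration enzymes Cbs (-0.66 and -1.02) and Cth (-0.43 and -0.69) fell. Of 4 genes of UDP-glucuronate supply, UDP-glucose dehydrogenase Ugdh rose by 0.81 and 0.90, and Slc35b1 fell in E171 mice by 0.50. Of 6 genes of PAPS supply, the transporters Slc35b2 (-0.23) and Slc35b3 (-0.17) fell in control mice and the sulfate carrier Slc26a1 (-0.53) fell in E171 mice, while the PAPS synthases Papss1 and Papss2 did not pass.

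A list of 8 genes outside the 3 families held microsomal and other glutathione transferases and related proteins such as Clic1 and Clic4. Of these 8, 4 rose and 0 fell in control mice and 5 rose and 2 fell in E171 mice. Hpgds, the hematopoietic prostaglandin D synthase, rose by 2.32 and 2.60, and Mgst3 by 0.98 and 0.82. Of 17 other conjugating or detoxifying enzymes, 4 rose and 6 fell in control mice and 6 rose and 5 fell in E171 mice. The quinone reductase Nqo1 rose by 1.81 and 1.62 and the microsomal epoxide hydrolase Ephx1 also (1.03 in E171 mice), while Nat8f1 (-1.21 and -1.35) fell. Among 8 exporters of conjugates, 5 rose in both comparisons and 2 and 3 fell: the basolateral pumps Abcc3 (0.98 and 1.28) and Abcc4 (0.88 and 0.85) led the rises and the bile salt export pump Abcb11 (-0.66 and -0.91) the falls. Of 6 genes listed for deconjugation (Gusb, Sts, Arsa, Arsb, Arsg and Sumf1), 4 rose and 0 fell in both comparisons. The arylsulfatases Arsa (0.91 and 0.94) and Arsg (0.67 and 0.80) led the rises. Whether these arylsulfatases act on phase II conjugates was not tested.

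A list of 17 tested regulators of phase II genes held transcription factors and Keap1, a partner of Nrf2. Of these 17, 1 rose and 5 fell in control mice and 2 rose and 4 fell in E171 mice. Nfe2l2, which encodes Nrf2, rose by 0.76 and 0.50, and Hnf4a, a nuclear receptor of the hepatocyte, fell (-0.48 and -0.61). The transcripts of the aryl hydrocarbon receptor, CAR (Nr1i3) and PXR (Nr1i2) did not pass in either comparison.

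Markers of other liver cells moved with the diet. Hepatocyte markers fell in 10 of 10 genes in control mice and in 9 of 10 in E171 mice, and the log2 of their summed level went from 12.38 to 12.73 in normal diet controls to 11.82 to 12.44 in Western diet controls, and from 12.40 to 12.78 in ND_E171 to 11.86 to 12.29 in WD_E171. Of lipid-associated macrophage markers 6 of 7 rose in both comparisons, with summed levels of 3.50 to 4.23 in ND_CONT, 3.56 to 4.38 in ND_E171, 4.29 to 6.36 in WD_CONT and 4.57 to 6.30 in WD_E171. Of the general macrophage markers, Kupffer cells included, 7 of 10 rose in both comparisons, with summed levels from 5.31 to 7.13 in ND_CONT, 5.80 to 6.76 in ND_E171, 6.27 to 7.71 in WD_CONT and 6.75 to 7.93 in WD_E171. Stellate cell markers rose in 6 of 8 genes in both comparisons, and cholangiocyte markers in 5 of 7 in control mice and in 6 of 7 in E171 mice. Of 8 pericentral hepatocyte markers 1 rose and 4 fell in control mice, and 4 rose and 1 fell in E171 mice. Of 6 periportal hepatocyte markers 2 fell in control mice and 3 in E171 mice, with 0 higher. Of 7 endothelial markers 3 rose and 2 fell in both comparisons. Of 6 tested T and NK cell markers 2 rose and 2 fell in control mice, and 3 rose and 2 fell in E171 mice. Of 5 neutrophil markers 2 rose in control mice, and 4 rose and 1 fell in E171 mice. Of 4 B cell markers 1 rose in both comparisons, and of 3 tested erythroid markers 0 passed. The 2 tested pancreas markers fell in both comparisons, Cela1 (-1.52 and -1.67) and Ctrb1 (-0.61 and -0.65), and of the 2 tested small intestine markers Fabp2 rose (1.04 and 1.08). The part of these shifts in the differences of the conjugation enzymes was not tested.

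Sex-biased liver genes moved too. Of 14 genes known to be higher in male mouse liver, 0 rose and 11 fell in control mice and 1 rose and 11 fell in E171 mice, led by the steroid dehydrogenase Hsd3b5 (-6.86 and -6.68). Hsd3b5 ran from 5.00 to 6.28 in normal diet controls and from -5.00 to 3.10 in Western diet controls. Of 7 tested genes known to be higher in female liver, 5 rose and 1 fell in control mice and 4 rose and 1 fell in E171 mice, among them Cyp2b13 (3.15 and 2.91).

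Relations of 10 members to the mean level of the 14 male-biased genes were computed across the 16 normal diet mice and, on Western diet, within clusters. The 16 Western diet mice were split into clusters at the largest gap in that mean, 0.75, where the next gap was 0.35. This left 10 mice (5 of each treatment) at 2.11 to 3.45 and 6 mice (3 of each) at 4.19 to 4.69. Among normal diet mice the largest gap was 0.17. Any set of values can be cut at its largest gap, so the split does not by itself show separate kinds of mice. This gave 30 relations, with two-sided permutation tests (100000 resamples for 10 or 16 mice, exact for 6) and adjustment over all 30. Across the 16 mice of a diet, levels were taken as deviations from the mean of each treatment group. Within the clusters they were taken as they stand, with both treatments together and no centring. Across all 16 Western diet mice 5 of 10 relations by r had a permutation adjusted p under 0.05 (adjustment over 20 relations, both diets). They were positive for Sult2a8 and Sult5a1 and negative for Sult2b1, Gstm4 and Ugt1a10. By Spearman rho that of Ugt1a10 did not pass (permutation adjusted p = 0.1308, against 0.0459 by r), while the others did. No pooled r is given because of the gap between the clusters. A cluster holds fewer mice and a narrower range of the mean. A relation that did not pass there is therefore not shown to be absent.

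By Pearson r 2 of the 30 relations passed, both of Sult5a1, and by Spearman rho 0 passed. Across the 16 normal diet mice Sult5a1 followed the male-biased mean with r = 0.72 (permutation p = 0.00124, adjusted p = 0.0339) and rho = 0.72 (permutation p = 0.00191, adjusted p = 0.0573). Without the 2 mice farthest from the median r was 0.64, and with slide means removed it was 0.75. Among the 10 Western diet mice of the lower cluster Sult5a1 gave r = 0.84 (permutation p = 0.00226, adjusted p = 0.0339) and rho = 0.83 (permutation p = 0.00488, adjusted p = 0.0732). There r was 0.67 without the 2 farthest mice and 0.87 with slide means removed, from 1 to 4 mice a slide.

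Sult2a8 gave r = 0.76 (permutation p = 0.0129, adjusted p = 0.1287) and rho = 0.81 (permutation p = 0.00749, adjusted p = 0.0749) in the same 10 mice, which did not pass after adjustment. Its r was 0.70 without the 2 farthest mice and 0.71 with slide means removed. Sult2b1 gave r = -0.60 and rho = -0.54 among the 10 mice (permutation p = 0.0658 and 0.1143, adjusted p = 0.3292 and 0.6642), with r = -0.55 without the 2 farthest and -0.51 with slide means removed. Among the 6 mice of the upper cluster it gave r = -0.85 and rho = -0.60 (exact permutation p = 0.0444 and 0.2417, adjusted p = 0.2667 and 0.8056). Without the 2 farthest of those 6 mice r was 0.0049, so that value rests on 2 mice.

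**Figure D4:**
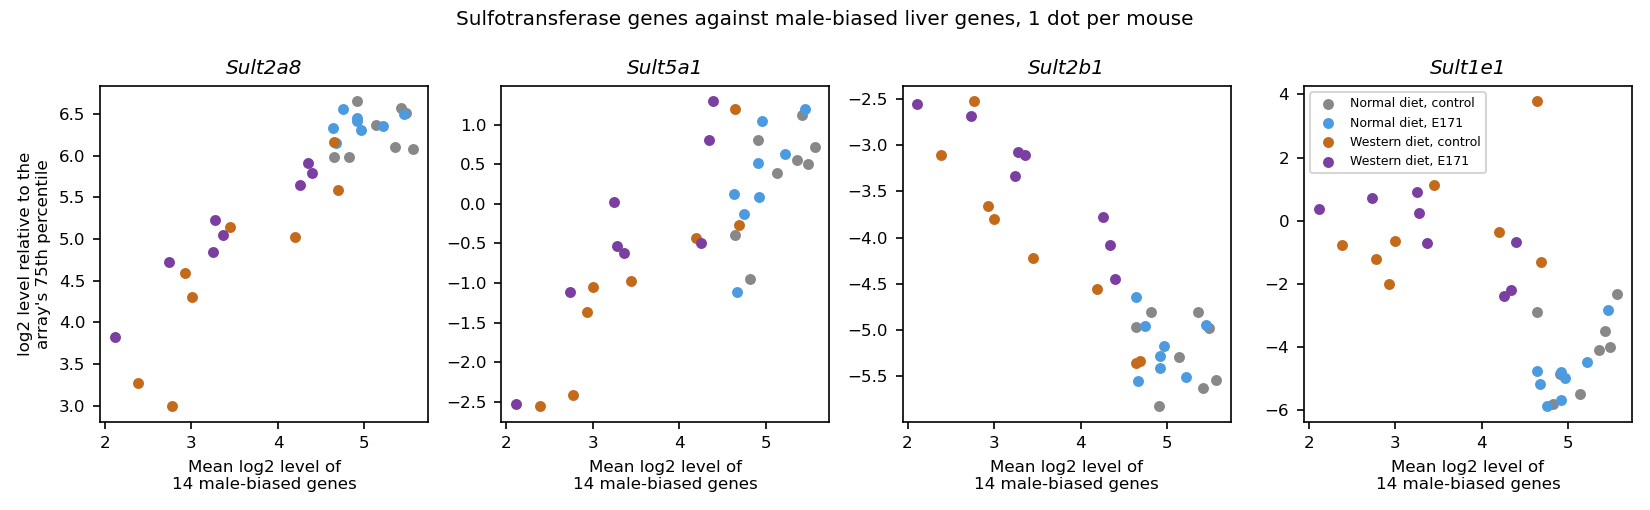
Log2 level of 4 sulfotransferase genes (vertical axis) against the mean log2 level of 14 male-biased genes (horizontal axis), 1 dot per mouse, coloured by group. Western diet mice reach from 2.11 to 4.69 on the horizontal axis, and Sult2a8 and Sult5a1 are lowest, and Sult2b1 highest, toward its low end. No relation of Sult1e1 to this mean passed after adjustment.

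E171 changed no member past the threshold. On normal diet 0 of 44 members passed (limma, background 0% of all genes), with 2 at an unadjusted p under 0.05, where 4.14% of all genes were. On Western diet 0 of 44 passed against 0.385% of all genes, with 5 at an unadjusted p under 0.05 against 12%. Averaged over both diets 0 passed against 0.364%, with 1 unadjusted against 11.1%, and the interaction of E171 and diet gave 0 against 0%, with 2 unadjusted against 5.25%. The count stayed at 0 in all 4 comparisons under every alternative that was run.

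The members with the smallest p values were still not called. On Western diet Gsta2 was lower with E171 by a log2 difference of -0.67 (95% interval -1.17 to -0.16, limma adjusted p = 0.2423), Ugt1a6b differed by 0.17 (adjusted p = 0.3466) and Gsta4 by -0.31 (adjusted p = 0.3592). On normal diet Sult1c1 differed by 0.29 (interval 0.09 to 0.48, adjusted p = 0.9842), Gsto2 by -0.41 and Ugt2a1 by 0.18 (adjusted p = 0.999 for both). Averaged over both diets Gsta2 differed by -0.41 (adjusted p = 0.3693), Ugt1a6a by 0.21 and Ugt2a1 by 0.15. In the interaction Gsto2 differed by 0.80 (interval 0.27 to 1.33, adjusted p = 0.8386), Sult1c1 by -0.39 and Gsta4 by -0.35. For Sult1e1 the E171 difference was -0.71 on normal diet and -0.29 on Western diet, with wide intervals of -2.03 to 0.62 on normal diet and -1.62 to 1.04 on Western diet, which includes changes of 2-fold in either direction on Western diet. For Gstm3 it was -0.21 to 0.24 and -0.27 to 0.19. The differences between the diet comparisons in control and in E171 mice are this interaction, and none passed.

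**Figure D5:**
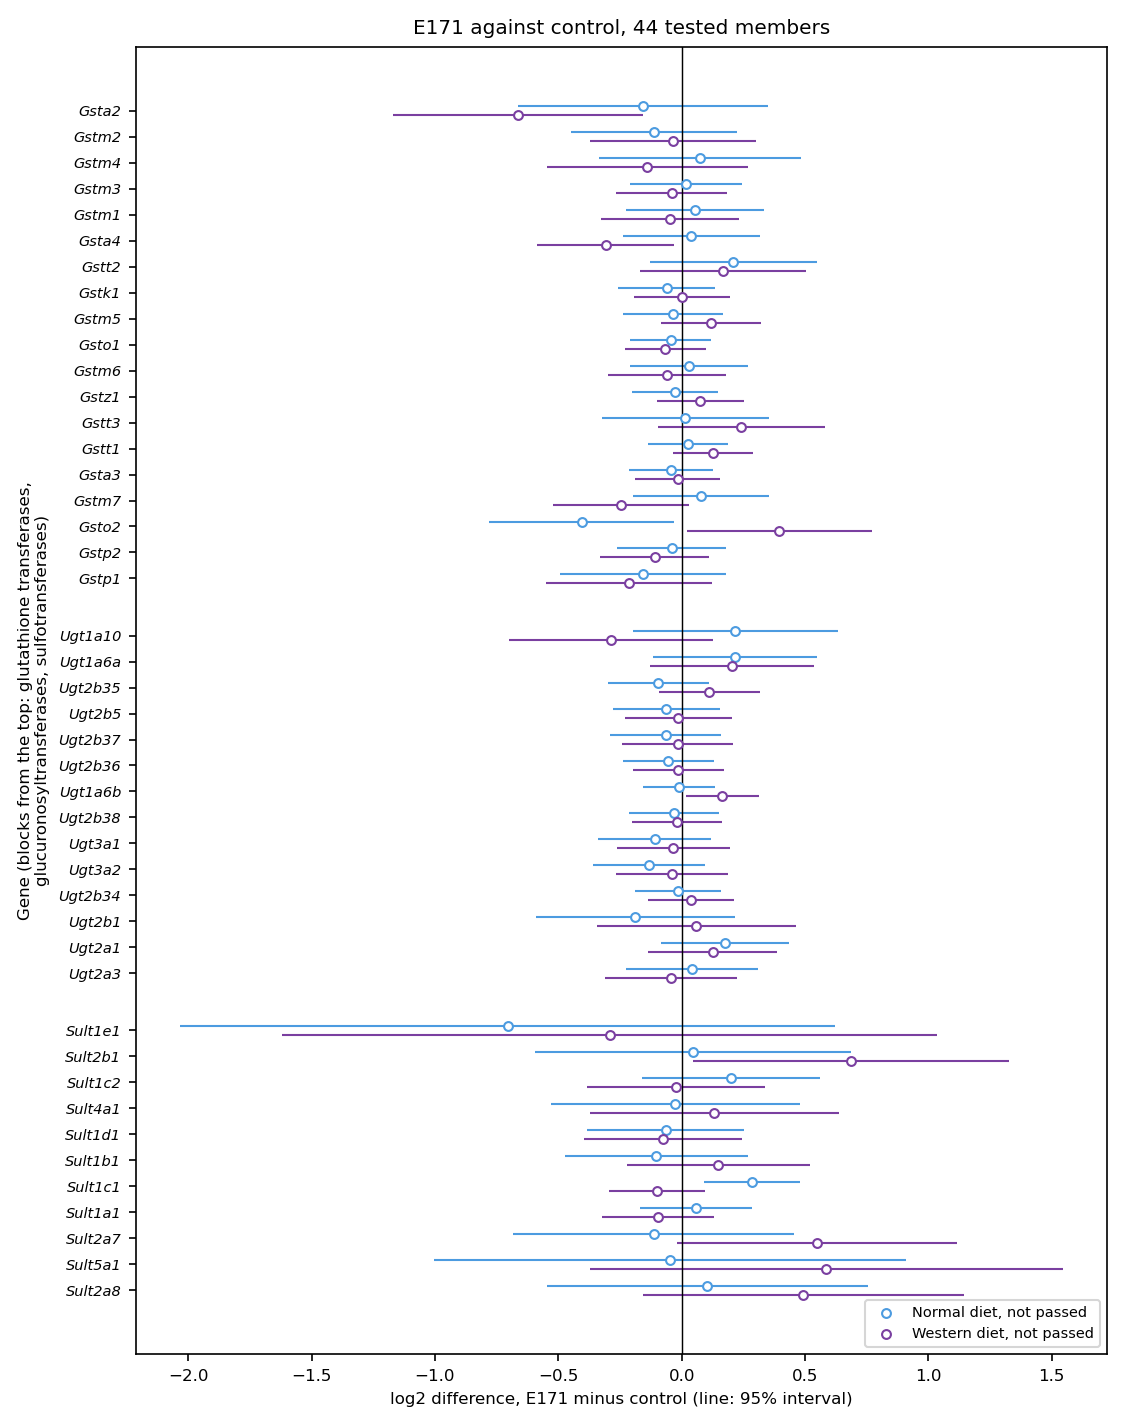
Log2 difference between E171 and control mice for the 44 tested members, with the 95% interval as a line, on normal diet (blue) and Western diet (purple). All dots are open because none passed the adjusted threshold of 0.05, and the differences lie between -0.71 and 0.69.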

How the data were processed

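Per the file headers, Agilent Feature Extraction 10.10.1.1 made the deposited intensity values, 62976 spots per one-colour (Cy3) array, with background subtracted and spatial trends removed. Per the submitters' processing notes limma followed, and the authors deposited a table of log2 values for 36695 probes (column medians 7.121 to 7.183, not centred on 0), whose normalization is not given in the sources used here. It served as an alternative.

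Here the log2 processed signal was used without outlier spots (42 to 91 per array), replicate spots were averaged, and each array's 75th percentile (249 to 489 intensity units) was subtracted. Probes well above background on 6 of 8 arrays of any group were kept (35777). The kept probe with the highest mean stood for its gene. limma 3.58.1 in R 4.3.3 (lmFit, eBayes) was fitted to all 32 arrays without a block. The fit was also run on simulated data with independent noise and few changed genes. That run held no slides, litters or correlated genes, so it does not check the fit under such structure. The number of arrays limits the precision, and the p-values weigh each difference against the spread between mice, pooled over the 4 groups. Saturated spots numbered 0. Named members were those called with at least 2-fold change, the largest rise and fall of each family, the 3 with the smallest p in each E171 comparison, members whose probes disagreed in sign, and up to 2 rises and 2 falls of each other list; the remaining members are given because they belong to the families described. The members and lists were chosen with earlier results of these data known, and the relation to male-biased genes, its split into clusters (made after the relations within each diet had been computed) and the fit without 2 arrays were chosen after seeing the data. Motifs and alignments used Python 3.11.15 and Biopython 1.88. Probe positions are on mm9, promoter windows on GRCm38.p6, and no coordinates were converted. Alternatives were quantile normalization, median scaling, normexp background correction (offset 50), the deposited table, no filter, a stricter filter, slide or replicate number as a block, the mean of a gene's probes, an intensity trend with robust spread, and a fit of only the compared groups.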

Additional observations from a re-analysis of the deposited data

Results flagged for a closer look

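In each of the 4 groups, 11 members named for the diet comparisons were checked for a mouse far from the others, 44 checks in all; about 1 in 20 such checks picks out a mouse by chance, and here 2 did. In ND_CONT, Gstm2 was at 5.23 (5.2287) in replicate 4, and the nearest of the other 7 mice was at 4.46. In ND_E171, Sult1e1 was at -2.84 (-2.8386) in replicate 1, and the nearest of the other mice was at -4.48. Both levels are on the log2 scale relative to the array's 75th percentile.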

How the results depend on the processing

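Over the alternatives, the number of members called between the diets ranged from 18 to 24 in control mice (20 as reported). In E171 mice it ranged from 17 to 22 (19 as reported). Among the 11 members named for the diet comparisons, no diet difference changed direction. Gsta3 and Gstm6, whose probes disagreed in sign, were not among those 11. In control mice 16 members (8 higher, 8 lower) and in E171 mice 16 (9 higher, 7 lower) were called in all 13 settings; Gsta3, Gstt2, Sult1a1 and Sult2b1 lost the call in at least 1 setting in control mice, and Gstk1, Gstm5 and Gstt2 in E171 mice. The 3 changed calls among those 11 members stand in the report. They were Sult2b1 with normexp and Sult2a7 with the replicate block and with only the groups compared. With the replicate block 20 and 21 members were called in control and E171 mice, and 0 in each E171 comparison. The replicate numbers were not taken as a pairing. Of 48 same-number pairs, 23 had deviations correlated over 0.1 (median 0.0685, from -0.298 to 0.571, against a median of -0.0186 over other pairs). As a hint from the data alone, 8 of 32 mice correlated best with their own number. No chance level was computed for that count, so these values do not settle whether the numbers pair mice. Signal near background limits Sult1e1, Sult2b1 and Gsto2. The cause of these changes was not tested.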
